A study of Drosophila melanogaster with 32 samples.

Results

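The Hippo pathway genes followed here are 10 of the 15251 genes counted in each library: the cadherins fat (ft) and dachsous (ds), the Golgi kinase four-jointed (fj), expanded (ex), Merlin (Mer), kibra, the kinases hippo (hpo) and warts (wts), the co-activator yorkie (yki) and its DNA-binding partner scalloped (sd). They were matched by name, and each was found once in every library. The counts list kibra under its locus tag, CG33967. All 10 genes passed the filter on low counts, as did 9183 genes in all.

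Total RNA was sequenced from cultures of 3 Drosophila melanogaster cell lines, R5, R1 and R4, each followed over successive passages, that is, rounds of splitting a culture into fresh medium. Passages 2, 3 and 4 made up the early stage of each line, passages between 5 and 11 the intermediate one, and passages 16, 17 and 19 the late one. The early, intermediate and late stages had 3, 3 and 3 libraries in R5, 3, 5 and 3 in R1, and 3, 5 and 3 in R4. Passage 12 of R4 falls in no stage that the study names, which leaves 31 of 32 libraries in the comparisons. All cultures grew in the same serum-containing medium with no further treatment named. The sources used here do not state a genotype, a tissue of origin or an age of the founding animals. Each line is 1 culture, so the replicate for stages is the line. The p-values within a line, and those between lines at 1 stage, measure only the spread between passages of single cultures.

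In flies the Hippo pathway restrains tissue growth. Fat and Dachsous are very large cadherins that bind each other between neighbouring cells, and Four-jointed tunes that binding by phosphorylating their extracellular domains. Fat signals and a membrane complex of Expanded, Merlin and Kibra both feed into the kinases Hippo and Warts, and Warts phosphorylates Yorkie and so keeps it from acting with Scalloped on growth genes.

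Library totals ran from 7760446 to 18213927 counts. The most sparsely covered of the 10 genes were ds, with 15 to 544 reads per library, fj with 26 to 194, and ft with 81 to 512. Levels are given as CPM, the usual unit of counts divided by library size, scaled between libraries by trimmed mean of M values (TMM). For the stage comparison, counts were summed per line and stage, and the mean and SD of these summed levels over n = 3 lines are given. Log2 changes, their standard errors (SE) and adjusted p-values come from edgeR's quasi-likelihood F test with Benjamini-Hochberg adjustment over all genes tested. A gene is called where the adjusted p is under 0.05.

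In the fit over the lines, the Fat and Dachsous pair moved in opposite directions between late and early passages. ds fell and ft rose, and these 2 of the 10 members were called, in a comparison that called 10.5% of all genes. The ds call held without any single library. The ft call was less firm, and was lost without R5 passage 19 (log2 change 0.665, edgeR adjusted p = 0.183). Tested within each line, ds was called in all of them and ft in none. The fitted late level of ds was 0.231 times the early one, and that of ft 1.90 times. The fj transcript was also higher late in every line but was not called over the lines. The median log2 change of the 10 genes was 0.06, beside 0.03 over all genes tested, with 5 genes above and 5 below 0. At an unadjusted p under 0.05 there were 5 members, ft, ds, fj, ex and wts. In a bulk culture a transcript made by fewer cells and one made at a lower level in each cell cannot be told apart.

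The ds gene encodes the ligand-like cadherin of the pair. At passages 16, 17 and 19 it stood at 3.96, 4.82 and 1.66 CPM in R5, at 4.20, 5.67 and 4.03 in R1, and at 6.91, 6.02 and 5.70 in R4. At passages 2, 3 and 4 it stood at 29.1, 9.57 and 7.33 CPM in R5, at 19.4, 19.9 and 28.2 in R1, and at 30.6, 13.2 and 23.9 in R4. Every late library lay below every early library of its own line, which held in all 3 lines for ds and sd and for 5.86% of all genes. The summed level averaged 4.87 ± 1.43 CPM at late and 20.6 ± 2.77 at early (SD, n = 3 lines), a log2 change of -2.12 ± 0.18 (SE; edgeR adjusted p = 0.00466). The direction was lower in 3 of 3 lines, at -2.28 in R5, -2.16 in R1 and -1.82 in R4 on the log2 scale. The call held without any single library, with log2 changes of -2.23 to -1.76 and adjusted p of 0.00272 to 0.0117. It was lost when R1 was left out (-2.08, adjusted p = 0.0654) or R4 was left out (-2.27, adjusted p = 0.0724), fits over 2 lines that called 61 and 34 genes in all, against 967 over 3 lines. The exons of ds share 125 bases, 1.01%, with lncRNA:CR44988 on the opposite strand.

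The passages at which ds was first low differed between the lines. In R5 it was already at 9.57 and 7.33 CPM at passages 3 and 4, and stood at 7.51, 11.8 and 7.99 at passages 6, 7 and 8. In R1 it was at its highest at passage 5, with 43.0 CPM, and stood at 12.3, 8.54, 6.69 and 5.11 at passages 7, 8, 10 and 11. In R4 it stayed at 24.8, 31.9 and 20.7 CPM at passages 5, 6 and 7, with 10.3 and 15.2 at passages 9 and 11. R4 thus held at least 10.3 CPM in every library before the late stage. The first library below that level was passage 3 in R5 (9.57 CPM), passage 8 in R1 (8.54) and passage 16 in R4 (6.91). R5 was above it again at passage 7. The lines were not sampled at the same intermediate passages, and this order was not tested. Over the lines the intermediate against early change was -0.45 ± 0.17 (adjusted p = 0.127) and the late against intermediate change -1.66 ± 0.17 (adjusted p = 0.0540), neither of them called. Without single libraries the first ran from -0.79 to -0.12 and the second from -1.75 to -1.33. In the summed R1 intermediate level, passage 5 gave 526 reads of ds and the other libraries 40 to 130 each.

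The ft gene encodes the receptor-like cadherin and tumour suppressor. Late, at passages 16, 17 and 19, it stood at 18.6, 13.4 and 56.5 CPM in R5, at 24.1, 29.4 and 27.6 in R1, and at 32.8, 44.2 and 37.3 in R4. Early, at passages 2, 3 and 4, it stood at 19.6, 20.1 and 11.4 CPM in R5, at 15.3, 10.8 and 17.7 in R1, and at 19.8, 11.4 and 26.4 in R4. The late libraries lay above all early ones in R1 and R4 and overlapped them in R5, where passage 19 alone was high. The summed level averaged 31.6 ± 5.33 CPM at late and 16.7 ± 2.54 at early (SD, n = 3 lines), a log2 change of 0.93 ± 0.15 (SE; adjusted p = 0.0206). The call rested on that library, since without R5 passage 19 the change was 0.67 with an adjusted p of 0.183. Without any other single library the adjusted p stayed between 0.0110 and 0.0400. Leaving out R1 gave 0.90 (adjusted p = 0.171) and leaving out R4 gave 0.87 (adjusted p = 0.125), so the call was lost there too. R5 passage 19 held both the highest ft and the lowest ds level of the 31 libraries.

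At intermediate passages edgeR called ft against neither the early nor the late stage, and single libraries varied. R5 passages 7 and 8, at 30.2 and 24.0 CPM, lay above every early library of R5 and above its late passages 16 and 17. R1 passages 10 and 11, at 22.9 and 19.8 CPM, lay above every early library of R1. It ranged from 9.97 to 30.2 CPM in R5, from 13.99 to 22.9 in R1 and from 13.6 to 21.1 in R4. The intermediate against early change was 0.15 ± 0.15 (adjusted p = 0.529), and the late against intermediate change was 0.77 ± 0.15 (adjusted p = 0.214).

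**Figure D1:**
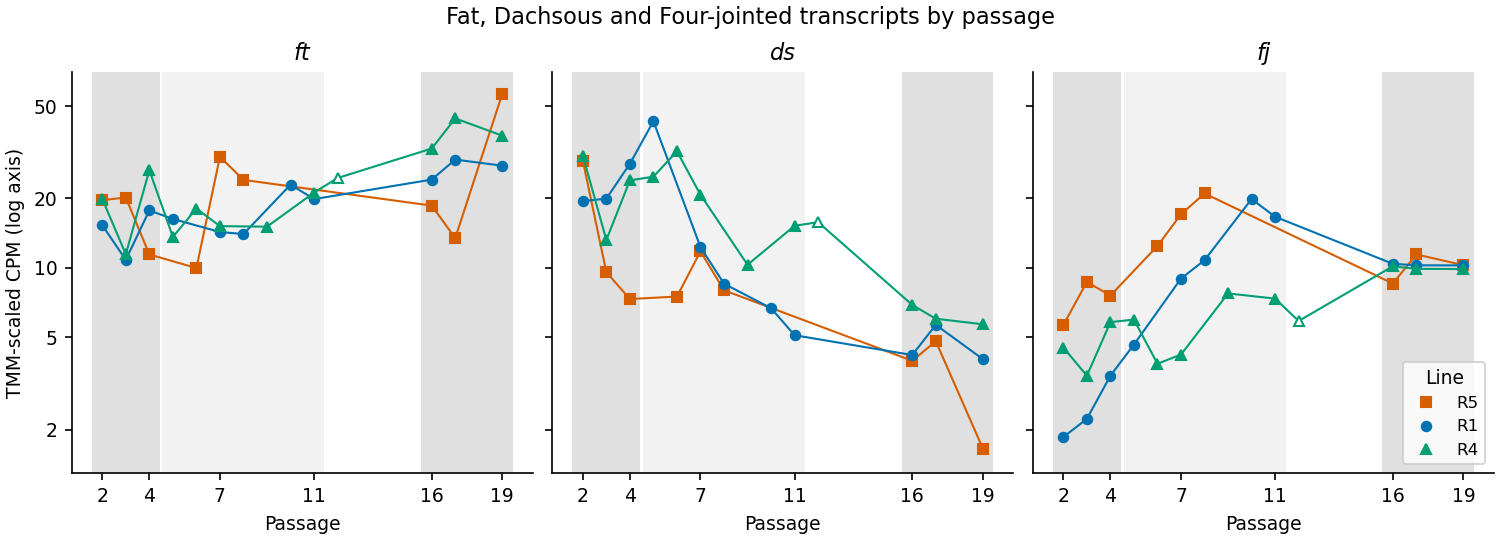
TMM-scaled CPM (log axis) of ft, ds and fj against passage number, 1 point per library, with squares for R5, circles for R1 and triangles for R4. Dark grey bands mark the early and late stages and light grey the intermediate one, and the open triangle is R4 passage 12, outside all stages; ds in the late band lies at or below 6.91 CPM, while fj meets near 10 CPM in all lines.

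Because ft and ds differ in length, they were set against each other as CPM per kb of exon, using 16.9 kb for ft and 12.4 kb for ds. At early passages the ds level per kb was 1.72 times that of ft in the median library, with a range of 0.645 to 2.49 and 7 of 9 libraries above 1. At intermediate passages the median ratio was 0.975 (0.350 to 3.58), with 6 of 13 libraries above 1. At late passages it was 0.237 (0.0397 to 0.486), with 0 of 9 libraries above 1. The ratio was first below 1 at passage 3 in R5 (0.645), passage 8 in R1 (0.827) and passage 9 in R4 (0.928). The exon lengths come from a later annotation than the one behind the counts, so the passage of crossing is uncertain where the ratio is near 1. In R5 the ratio returned to 1.02 at passage 6 before it fell again.

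The fj gene encodes the kinase that modifies both cadherins, and is itself known as a target of Yorkie. In late libraries, passages 16, 17 and 19, it stood at 8.55, 11.4 and 10.3 CPM in R5, at 10.4, 10.3 and 10.2 in R1, and at 10.2, 9.90 and 9.87 in R4. In early libraries, passages 2, 3 and 4, it stood at 5.66, 8.69 and 7.59 CPM in R5, at 1.86, 2.22 and 3.42 in R1, and at 4.52, 3.42 and 5.82 in R4. The lines were thus close together at late passages and spread at early ones, with late above early in every library of R1 and R4 and an overlap in R5. The summed level averaged 10.2 ± 0.214 CPM at late and 4.60 ± 2.27 at early (SD, n = 3 lines), and the log2 change of 1.26 ± 0.40 missed the threshold (SE; adjusted p = 0.0965). DESeq2 called it, at a log2 change of 1.24 and an adjusted p of 0.0201.

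Between those stages fj passed its late level in R5 and R1. It reached 12.4, 17.0 and 21.0 CPM at passages 6, 7 and 8 of R5. In R1 it stood at 4.66, 8.98, 10.8, 19.8 and 16.6 CPM at passages 5, 7, 8, 10 and 11. In R4 it stayed between 3.85 and 7.75 CPM over passages 5 to 11. The intermediate level averaged 11.5 ± 5.65 CPM over the 3 lines, with a change from early of 1.31 ± 0.40 (SE; adjusted p = 0.0872).

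Within single lines, tested against the spread between passages, ds was called in 3 of 3 lines, fj in R1 and R4, and ft in none, with an adjusted p of 0.179 in R5, 0.0965 in R1 and 0.0596 in R4. R5 called ds only, at a late over early log2 change of -2.14 ± 0.65 (adjusted p = 0.0221), where 17.5% of all genes were called. R1 called ds at -2.28 ± 0.62 (adjusted p = 0.00806) and fj at 2.05 ± 0.37 (adjusted p = 2.613e-04), against 27.7% of all genes. R4 called 4 members, ds at -1.85 ± 0.61 (adjusted p = 0.0239), fj at 1.12 ± 0.36 (adjusted p = 0.0196), ex and sd, against 30.9% of all genes. Several of these calls depended on single libraries. The ds call in R5 was lost without passage 2, 16 or 19 of that line (adjusted p = 0.227, 0.0597 and 0.104) and in R4 without passage 2, 16, 17 or 19 (0.0857, 0.0561, 0.0675 and 0.0700). The fj call in R4 was lost without its passage 2 or 3 (0.0547 and 0.0926).

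Whether the late against early change differed among the lines was tested for each gene, and edgeR called 0 members, against 12.8% of all genes. DESeq2 called 0 as well, and fj was the 1 member at an unadjusted p under 0.05. The adjusted p for fj was 0.0898, for changes of 0.48 ± 0.35 in R5, 2.05 ± 0.37 in R1 and 1.12 ± 0.36 in R4. With passage number as a block, which pairs the early libraries of the 3 lines, fj was called, with an adjusted p of 0.0157. It was also called when R1 passage 5 was left out (0.0309). For ds and ft the adjusted p of the difference was 0.940 and 0.973, which does not show that the lines changed alike, since the SE of each line's change was 0.61 to 0.65 for ds and 0.39 to 0.40 for ft on the log2 scale.

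**Figure D2:**
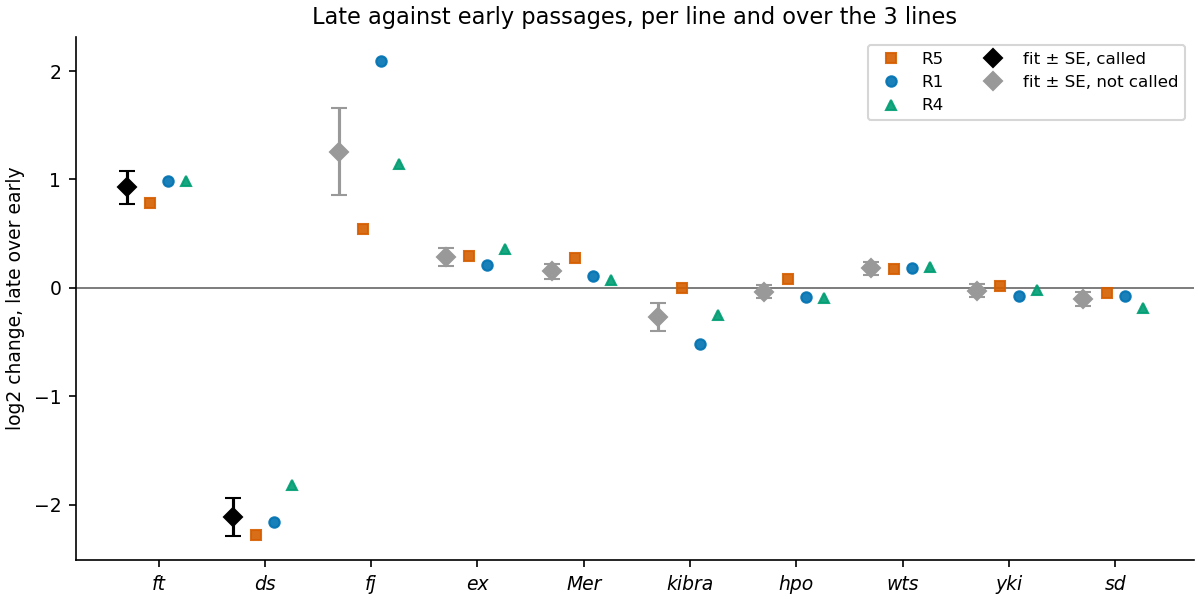
Log2 change of late over early for the 10 genes, with diamonds for the fit over 3 lines (bars, SE; black where called) and squares, circles and triangles for the changes of the summed libraries of R5, R1 and R4. The ft and ds diamonds are black at 0.93 and -2.12, fj spreads from 0.54 in R5 to 2.10 in R1, and the other 7 genes lie within 0.6 of 0 in every line.

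None of the membrane-proximal genes ex, Mer and kibra was called between late and early over the lines, though ex was higher at late in every line. ex encodes a FERM-domain protein and is known as a target of Yorkie. In R5 it stood at 234, 200.0 and 201 CPM at late passages and at 188, 169 and 169 at early ones. In R1 it stood at 189, 209 and 212 CPM at late passages and at 177, 179 and 186 at early ones, and in R4 at 187, 184 and 190 at late and 158, 145 and 144 at early. Late lay above early in every library of all 3 lines, which was so for ex alone among the 10 genes and for 3.91% of all genes. The summed level averaged 203.6 ± 12.9 CPM at late and 167 ± 17.0 at early (SD, n = 3 lines), a log2 change of 0.29 ± 0.08 that was not called by edgeR (SE; adjusted p = 0.0830) and was called by DESeq2 (0.27, adjusted p = 0.0484). Within R4 the change was 0.33 ± 0.12 (adjusted p = 0.0413), and this call was lost when any 1 of the 6 early or late libraries of R4 was left out. The exons of ex and crq, on opposite strands, share 448 bases, 6.71% of the exon length of ex. The sources do not state whether counting used the strand. crq stood at 199 CPM at late and 135 at early, with a log2 change of 0.47 ± 0.24 (adjusted p = 0.237).

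Mer, the fly homologue of the human neurofibromatosis gene NF2, averaged 73.9 ± 4.95 CPM at late and 66.6 ± 5.97 at early (SD, n = 3 lines). Its log2 change was 0.15 ± 0.07 (adjusted p = 0.203), and the stages overlapped in all 3 lines. kibra encodes a WW-domain scaffold. It averaged 46.2 ± 12.0 CPM at late and 54.9 ± 10.7 at early, a change of -0.27 ± 0.13 (adjusted p = 0.222), and it varied widely between neighbouring early passages. At passages 16, 17 and 19 it stood at 72.3, 48.4 and 54.6 CPM in R5, at 42.5, 45.1 and 40.8 in R1, and at 34.8, 37.7 and 34.1 in R4. At passages 2, 3 and 4 it stood at 45.1, 67.4 and 77.4 CPM in R5, at 58.2, 77.1 and 45.7 in R1, and at 34.2, 69.4 and 27.3 in R4. Passage 3 was the highest early library in R1 and R4, and late lay wholly below early in R1 alone. Without passage 2 of every line kibra was called lower at late, at -0.45 (adjusted p = 0.0467).

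Neither kinase was called between late and early. hpo, the upstream kinase, averaged 109 ± 2.11 CPM at late and 112 ± 9.20 at early (SD, n = 3 lines), with a log2 change of -0.03 ± 0.06 (SE; adjusted p = 0.741). Its exons share 130 bases, 4.64%, with Rep on the opposite strand. wts, the kinase that phosphorylates Yorkie, averaged 226 ± 7.92 CPM at late and 199.6 ± 6.69 at early, with a change of 0.18 ± 0.06 (adjusted p = 0.0998) and overlapping stages in every line.

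wts was the 1 member called between intermediate and early, in a comparison that called 9.67% of all genes. Its level averaged 245.7 ± 16.2 CPM at intermediate and 199.6 ± 6.69 at early (SD, n = 3 lines), a log2 change of 0.30 ± 0.06 (SE; adjusted p = 0.0339). The intermediate libraries ran from 206 to 236 CPM in R5, 219 to 294 in R1 and 239 to 286 in R4. The early libraries ran from 172 to 225 CPM in R5, 194 to 223 in R1 and 176 to 226 in R4, with passage 2 lowest and passage 4 highest in each. The call was lost without R1 passage 5 (adjusted p = 0.0541), R4 passage 2 (0.0610) or R5 passage 2 (0.0853), and it was lost with any 1 line left out.

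yki and sd, the nuclear end of the pathway, were among the least variable genes. yki averaged 36.98 ± 1.18 CPM at late and 37.7 ± 2.25 at early (SD, n = 3 lines), with a log2 change of -0.03 ± 0.06 (SE; adjusted p = 0.801). Its 31 libraries ran from 31.9 to 43.1 CPM, and the SD of its log2 level was at percentile 2.13 of all genes tested. The corresponding percentiles were 2.38 for hpo and 4.39 for sd, against 70.6 for ft, 79.0 for fj and 87.5 for ds. The highest library was 1.35 times the lowest for yki, 1.39 times for sd, 5.67 times for ft, 11.3 times for fj and 25.95 times for ds. Low counts add to that spread, and ft, ds and fj were also the lowest of the 10, at percentiles 43.1, 32.5 and 28.5 of mean level.

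sd encodes the TEAD-family DNA-binding protein through which Yorkie acts. It stood at 346, 335 and 349 CPM at late passages of R5 and at 362, 362 and 370 at early ones. It stood at 369, 342 and 361 at late and at 386, 386 and 382 at early in R1, and at 295, 289 and 277 at late and 330, 354 and 323 at early in R4. Late lay below early in every library of all 3 lines, yet the shift was small. Over the lines it was -0.10 ± 0.06 on the log2 scale (adjusted p = 0.327), and within R4 -0.22 ± 0.07 (adjusted p = 0.0161). The R4 call was lost without its passage 3 (0.0736) or 19 (0.0568).

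**Figure D3:**
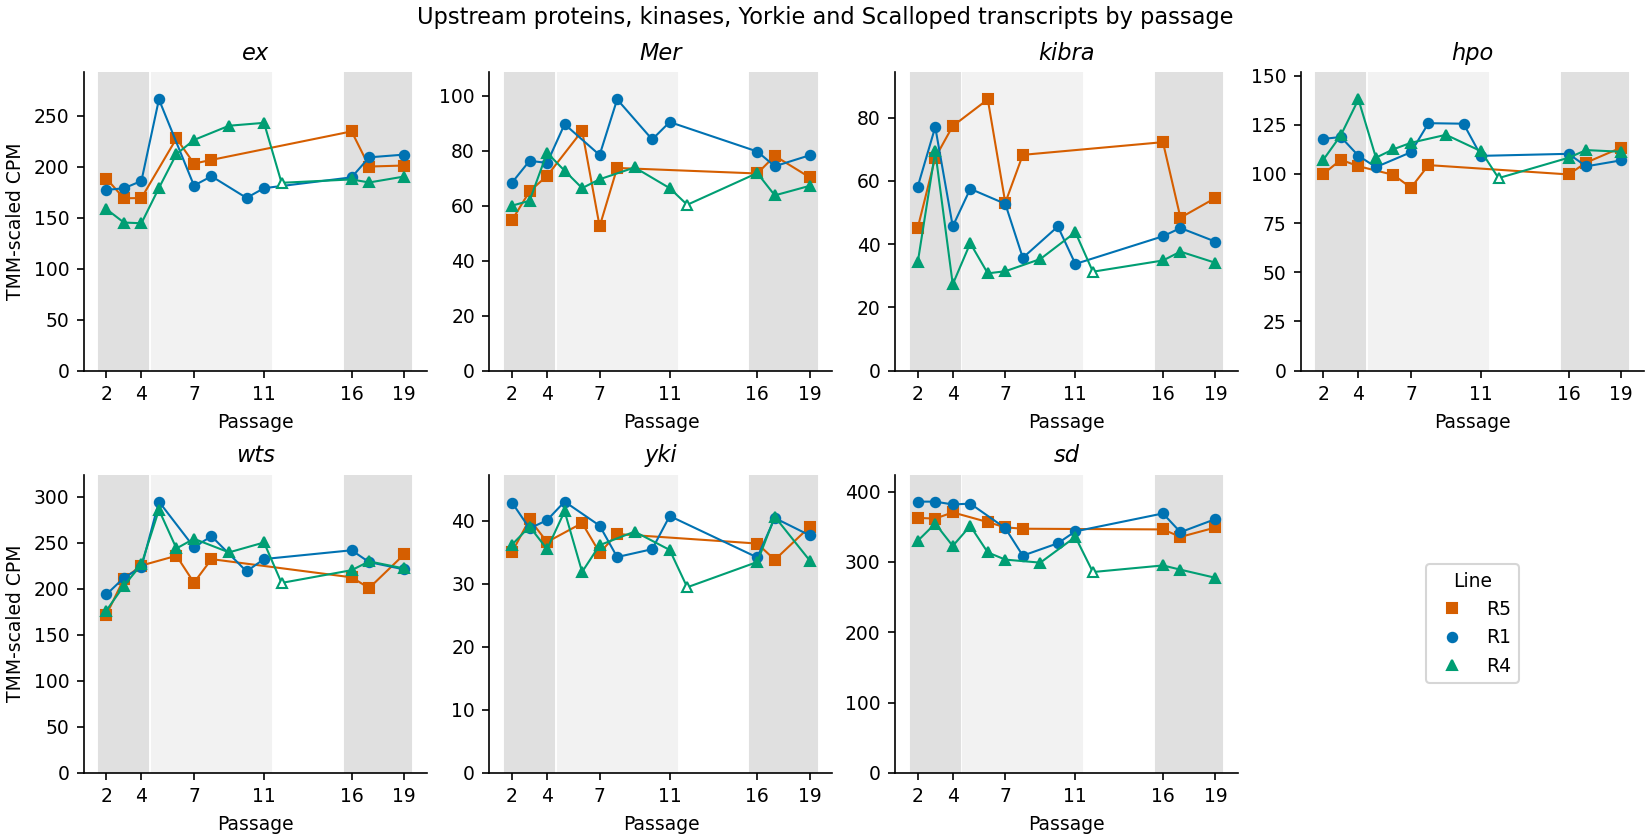
TMM-scaled CPM (linear axes from 0) of ex, Mer, kibra, hpo, wts, yki and sd against passage number, 1 point per library, with the line symbols, the stage bands and the open triangle for R4 passage 12 as in the plot of the Fat branch. sd in R4 ends at 277 CPM at passage 19, below R1 at 361 and R5 at 349, while hpo, wts and yki run close together.

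Between late and intermediate passages edgeR called 0 of the 10 genes, where it called 0.0762% of all genes. ft and ds were the 2 members at an unadjusted p under 0.05, and DESeq2 called both of them.

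Among the established late cultures, tested against the spread between passages, the lines differed in sd and, for 1 pair, in kibra. sd was the 1 member called across the 3 lines at late passages (adjusted p = 0.00173), where 46.2% of all genes were called. It averaged 357 ± 13.7 CPM in R1 and 287 ± 8.96 in R4 (SD, n = 3 passages), a log2 difference of 0.31 ± 0.07 (SE; adjusted p = 0.00351), the 1 member called where 14.7% of all genes were. It averaged 343 ± 7.07 CPM in R5, which was 0.26 ± 0.07 above R4 (adjusted p = 0.00506). These late sd calls held without any single library. At early passages R4 also had the lowest mean sd, at 336 ± 16.7 CPM, with 365 ± 4.82 in R5 and 384 ± 2.32 in R1. That early difference was not called across the lines (edgeR adjusted p = 0.182). At late passages R5 and R1 differed in sd by -0.05 ± 0.07, and edgeR called 0 members between them, against 33.6% of all genes, with 0 at an unadjusted p under 0.05 and 0 by DESeq2.

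Between R5 and R4 edgeR called 2 members, sd and kibra, against 34.1% of all genes. kibra averaged 58.4 ± 12.4 CPM in R5, 42.8 ± 2.17 in R1 and 35.5 ± 1.87 in R4 at late passages (SD, n = 3 passages). R5 was 0.72 ± 0.27 above R4 (adjusted p = 0.0441), a call lost without any 1 of 10 libraries, at up to 0.184 without R5 passage 16. ft was not called between R5 and R4 (-0.36 ± 0.39, adjusted p = 0.496). Without R5 passage 19 it was called lower in R5, at -1.25 (adjusted p = 0.0123), and across the 3 lines (0.0237).

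At early passages fj was the 1 member that differed across the lines (adjusted p = 0.0359), where 4.68% of all genes did. It averaged 7.31 ± 1.53 CPM in R5, 2.50 ± 0.817 in R1 and 4.59 ± 1.20 in R4 (SD, n = 3 passages). With passage number as a block the adjusted p was 0.00667. It was lost without R1 passage 2 (0.152), R1 passage 3 (0.1202), R5 passage 3 (0.113) or R5 passage 4 (0.0957). At late passages fj averaged 10.1 ± 1.44 CPM in R5, 10.3 ± 0.0929 in R1 and 9.97 ± 0.154 in R4, with pairwise log2 differences of at most 0.04 ± 0.35.

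Per kb of exon, the late levels formed a graded order. wts, hpo and sd stood highest, at 39.0 ± 1.36, 38.9 ± 0.752 and 38.0 ± 4.33 CPM per kb (SD, n = 3 lines), and their lines overlapped. ex followed at 30.5 ± 1.94, yki at 24.3 ± 0.776, Mer at 21.7 ± 1.45 and kibra at 8.04 ± 2.08 CPM per kb, each with its lines apart from the next. The Fat branch was lowest, with fj at 2.88 ± 0.0602, ft at 1.88 ± 0.316 and ds at 0.392 ± 0.115 CPM per kb. At early passages the order within that branch was different, with ds at 1.65 ± 0.223, fj at 1.295 ± 0.640 and ft at 0.990 ± 0.151 CPM per kb, and the lines of neighbours in that order overlapped. Exon lengths are those of a later annotation than the one behind the counts.

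**Figure D4:**
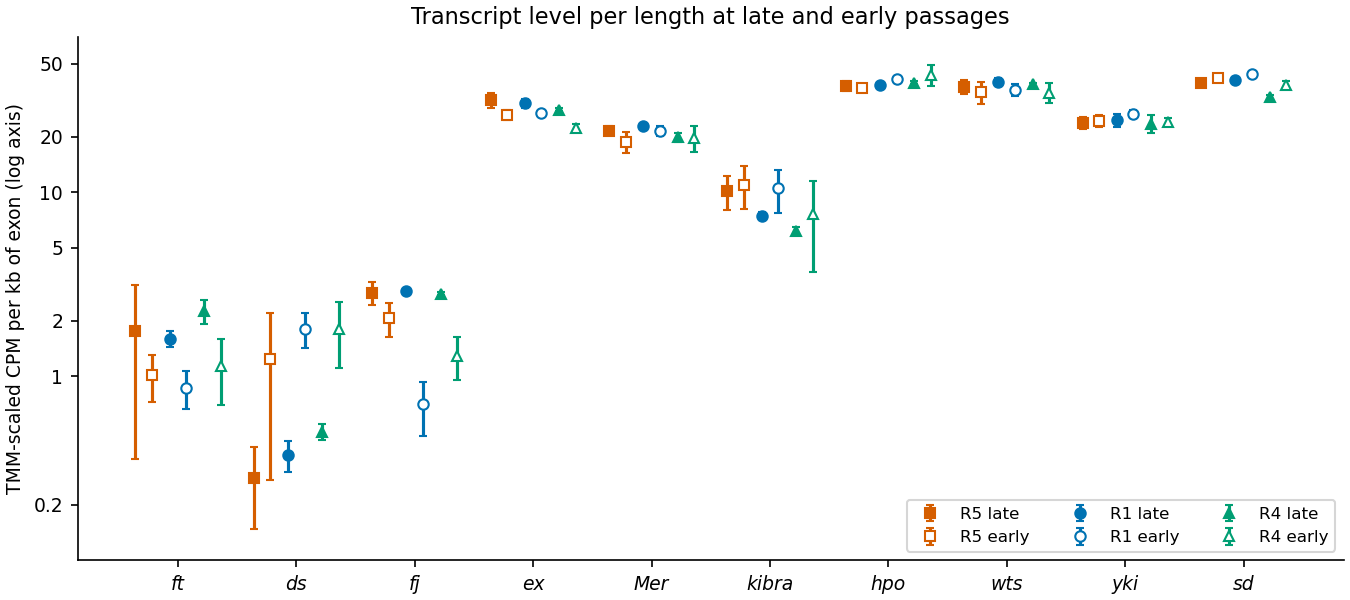
TMM-scaled CPM per kb of exon (log axis) of the 10 genes, as mean ± SD over the 3 passages of a stage, with filled symbols for late and open symbols for early libraries of R5, R1 and R4. In each line ds at late stands lowest of all genes, at 0.280 in R5, 0.373 in R1 and 0.500 in R4, and hpo, wts and sd stand between 32.7 and 43.8.

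The other genes of the pathway were counted as lists between late and early, beside the 10.5% of all genes called in that comparison. Of the other Fat and Dachsous branch genes, 5 of 6 were measured (Fbxl7 was not) and edgeR called 0, with 0 at an unadjusted p under 0.05 and 0 by DESeq2. That list includes dachs, which encodes the myosin that Fat restrains, at 12.1 ± 3.00 CPM at late and 11.1 ± 1.91 at early (SD, n = 3 lines; log2 change 0.11 ± 0.26, adjusted p = 0.803). Of 20 other kinase cassette and upstream genes edgeR called 0 higher and 1 lower, with 5 at an unadjusted p under 0.05. DESeq2 called 1 higher (Mob4) and 2 lower (ed and crb), and limma-trend 2 lower (ed and crb). The edgeR call was ed, which encodes the adhesion protein Echinoid, at 76.4 ± 24.9 CPM at late and 183 ± 33.2 at early, a log2 change of -1.32 ± 0.28 (SE; adjusted p = 0.0392). crb, named after its value was seen, encodes the apical polarity protein Crumbs. It averaged 88.2 ± 80.3 CPM at late and 432 ± 214 at early, a log2 change of -2.45 ± 0.67 (edgeR adjusted p = 0.0697). The median change of these 20 genes was -0.02, against 0.03 over all genes. Of 8 nuclear partners of Yorkie and Scalloped edgeR called 0, with 0 at an unadjusted p under 0.05, 0 by DESeq2, and a median of 0.13.

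Of 12 other genes known as targets of Yorkie, edgeR called 1 higher and 1 lower. There were 5 at an unadjusted p under 0.05, and the median log2 change was -0.04. These counts and the median leave out the members fj and ex, also known as targets, at log2 changes of 1.26 and 0.29. DESeq2 called 1 higher and 2 lower, with wg as the further gene. Ser, a Notch ligand, averaged 92.6 ± 45.9 CPM at late and 41.9 ± 12.2 at early (SD, n = 3 lines), a change of 1.09 ± 0.19 (SE; adjusted p = 0.0248), higher in 3 of 3 lines. vn, an EGF receptor ligand, averaged 34.5 ± 19.4 CPM at late and 125.7 ± 56.9 at early, a change of -1.96 ± 0.41 (adjusted p = 0.0379), lower in 3 of 3 lines. The calls of Ser, vn and ed were each lost when R1 or R4 was left out, and that of ed also without R5 or without R1 passage 5, R4 passage 3 or R5 passage 19. Named after their values were seen, the Wnt ligand wg had a log2 change of -3.76 ± 1.33 (edgeR adjusted p = 0.119), at 0.38 in R5, -6.17 in R1 and -4.96 in R4. The apoptosis inhibitor Diap1 had one of 0.27 ± 0.08 (adjusted p = 0.0915), CycE of 0.34 ± 0.10 (adjusted p = 0.0851) and Myc of 0.00 ± 0.12 (adjusted p = 0.989). The rest of the list was not called. Those log2 changes were 1.08 for upd1, 0.18 for dally, -0.08 for E2f1, -0.24 for dlp, -0.99 for upd2 and -1.15 for upd3. Between intermediate and early, edgeR called Diap1 higher (0.38 ± 0.08, adjusted p = 0.0454), where it called 9.67% of all genes. That call was not put through the alternatives.

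**Figure D5:**
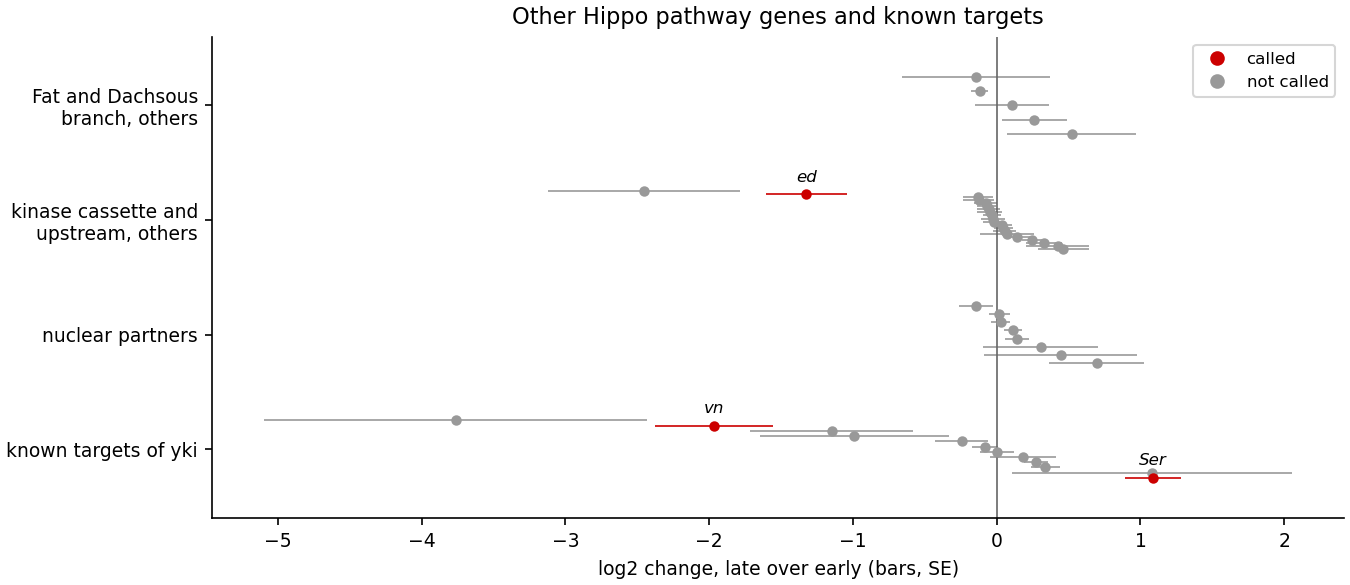
Log2 change of late over early over the 3 lines for each measured gene of 4 lists of pathway genes and known targets, 1 point per gene with its SE, red where called by edgeR. Of all points only ed at -1.32, vn at -1.96 and Ser at 1.09 are red.

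By Pearson correlation of log2 CPM over the 31 libraries, the genes most like ds were ci, the Hedgehog pathway transcription factor (r = 0.869), CG30154 (0.861) and CG8870 (0.818). Those most like ft were CG3408 (0.759), Sfp78E (0.744) and Oaz (0.734). Within the pathway ds ran against fj (r = -0.67) and ft (-0.44). These correlations describe libraries that share 3 cultures and a passage order.

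Some markers of other cell types fell over the same interval as ds, counted here beside the 10.5% of all genes called. Of 4 glial markers edgeR called 1 lower and 0 higher, with 3 at an unadjusted p under 0.05, and DESeq2 called 3 lower (alrm, Gs2 and moody). The edgeR call was alrm, at 1.23 ± 0.663 CPM at late and 44.5 ± 39.0 at early (SD, n = 3 lines; adjusted p = 0.0126). The marker repo was not called, with log2 changes of -2.33 in R5, 0.75 in R1 and -0.41 in R4. In late libraries the summed list ran from 84.9 to 126 CPM in R5, 68.2 to 81.7 in R1 and 54.0 to 74.0 in R4. In early libraries it ran from 197 to 248, 179 to 224 and 67.2 to 171, so the stages overlapped in R4 only. Of 3 markers of the gonadal soma edgeR and DESeq2 each called 1 lower, tj, at 0.108 ± 0.0467 CPM at late and 154.6 ± 61.6 at early (adjusted p = 1.208e-04), with a summed list of 135 to 268 CPM at late and 124 to 471 at early. The other markers of that list were not called and had log2 changes of 0.30 ± 0.14 for zfh1 (adjusted p = 0.208) and 0.73 ± 1.12 for eya (adjusted p = 0.687), which gives a list median of 0.30. Of 4 fat body markers, 2 were measured and edgeR and DESeq2 called both lower, apolpp (13.0 ± 4.61 CPM at late and 131 ± 75.7 at early, adjusted p = 0.0126) and Fbp1, which had 1 read in all late libraries together and 620 in the early ones. The summed fat body list ran from 7.09 to 23.8 CPM at late and from 18.5 to 446.5 at early. Of 5 neuronal markers both tools called 1 lower, VGlut, at 0.275 ± 0.128 CPM at late and 1.09 ± 0.0895 at early (edgeR adjusted p = 0.0405). VGlut was sparsely covered, with 27 reads in all late libraries together and 135 in the early ones. elav, nSyb, Syt1 and brp were not called, with log2 changes of -0.08, -0.77, -1.36 and 0.18. The neuronal list summed to 158.5 to 210.4 CPM at late and 172 to 236 at early. Of 5 hemocyte markers and 5 muscle markers edgeR called 0, with 1 of each at an unadjusted p under 0.05. These were NimC1, lower, and Mef2, higher, each in 3 of 3 lines. DESeq2 called 1 hemocyte marker (NimC1, lower) and 0 muscle markers. The hemocyte log2 changes were -1.97 for NimC1, -1.265 for He, -0.87 for Pxn, -0.08 for Hml and 0.41 for srp. Those of muscle were 1.34 for Tm2, 0.38 for sls, 0.36 for Mef2, 0.16 for Act57B and -0.39 for Mhc. The hemocyte list summed to 93.5 to 477 CPM at late and 55.7 to 415.5 at early. Its late sums were 93.5 to 125.6 CPM in R5, 114.6 to 211.4 in R1 and 378.5 to 476.7 in R4. The muscle list summed to 169 to 538 CPM at late and 117 to 422 at early. No marker was without a read in every late library, and Fbp1 was without one in 8 of 9. The part of these cell types in the ds and ft changes was not tested.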

How the data were processed

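RNA-seq counts of 32 libraries were used. The deposited files hold raw counts per gene. Per the submitters' processing notes the tools were TopHat 1.4.1, Bowtie 0.12.8 and bedtools on BDGP5 (dm3). Those sources do not give the counting rule, strand setting or annotation. Ribosomal RNA was depleted and ScriptSeq libraries were made, per the labels. Of 15253 entries, 2 named no gene (0.0123 to 0.0187% of counts) and were left out. Symbols, arms and exon lengths came from BDGP6.54 (9370 genes matched by ID, 5002 by locus tag, 95 and 400 by synonyms of the ID and symbol; 384 kept the file's symbol). Coordinates are not given, since the builds differ. By arm, ft, ds and ex lie on 2L, fj, hpo and yki on 2R, kibra and wts on 3R, and Mer and sd on X. No 2 libraries were identical, and the labels name no batch.

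The tests covered the 9183 genes that reached 1 CPM in 3 or more libraries. Stages were compared with edgeR 4.0.16 on counts summed per line and stage, with stage and line as terms (4 residual degrees of freedom). Lines were compared over 31 libraries in 9 groups (22 residual degrees of freedom), with joint F tests across the 3 lines. The series text names passage 4 in 2 stages; it was taken as early. Lines pair the stages: deviations of 1 line correlated at r = 0.252 to 0.673. Passage numbers pair the early libraries (0.115 to 0.729) and not the late ones (-0.075 to 0.084); passage was a block in an alternative only. Per-line log2 changes of summed libraries carry a pseudocount of 0.1 CPM. The fits were tried on simulated counts drawn independently for each library, with no line or passage effect. That trial cannot show how they behave under the pairing seen here. Alternatives covered scaling, filters, DESeq2 1.42.0, limma-trend (limma 3.58.1), staging and left-out libraries or lines. The list genes called late against early were put through the same alternatives, a choice made after seeing the data.

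The 10 members and the gene lists were chosen with earlier results of these data known. The text names all members, the called genes of each list (at most 4 per direction) and, for each member called late against early, the 3 genes of highest correlation. PCR duplicates could not be removed without molecular identifiers.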

Additional observations from a re-analysis of the deposited data

Results flagged for a closer look

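In the intermediate group of R1, 5 libraries, passage 5 stood apart from the other 4 in both ds and ex. For ds it held 43.0 CPM, with the other passages from 5.11 to 12.3, and the gap to the nearest of them was 0.8104 of the whole range, above the critical value of 0.71. For ex it held 266 CPM, with the others from 169 to 191, and the gap was 0.7803 of the range. Over 20 groups tested this way, chance gives a result of this size in about 1 group in 20. Passage 5 is the earliest passage of that group, next in order to the early libraries, which held 19.4 to 28.2 CPM of ds and 177 to 186 of ex.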

How the results depend on the processing

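In the fit over the lines, no member changed direction between late and early under any alternative run. Within single lines some did when 1 library was left out. The late over early log2 change of ft in R5 then ran from -0.09 to 1.14, and that of kibra in R4 from -0.54 to 0.21. Mer and yki in R4, and kibra, hpo, wts and yki in R5, also changed sign in this way. Of the settings of single members other than left-out libraries, 123 kept the call or its absence, 4 lost it (ft and ds without R1 or R4) and 3 gained it (fj and ex with DESeq2, kibra without passage 2 of every line). The number of members called late against early was 2, with 4 by DESeq2 and 0 without line R1 or without R4; without single libraries it ran from 1 to 2. Intermediate against early, it was 1 (wts), with 0 by total counts, 0 with no filter, 0 with at least 5 CPM, 0 without passage 2, 0 with no replicate block, 0 without each line in turn, 3 by DESeq2, 2 by limma-trend, and 0 to 2 without single libraries. Late against intermediate it was 0, with 1 with no filter, 2 by DESeq2, 1 by limma-trend, 1 without R5, and 0 to 1 without single libraries. Without passage 2 the count was 1 in R4 and 0 in R5; without single libraries it ran from 0 to 2 in R5, 2 to 3 in R1 and 1 to 5 in R4. The members whose change differed among lines numbered 1 (fj) with passage as replicate block, and 0 to 1 without single libraries; the block changed no other call. Among lines at early passages the count was 0 with passage 4 as intermediate and 0 without passage 2, and 0 to 2 without single libraries. At late passages it was 2 with passage 4 as intermediate and 1 to 2 without single libraries. It was 1 to 1 between R1 and R4, 0 to 0 between R5 and R1, and 1 to 2 between R5 and R4, where no filter gave 1. The cause of these shifts was not tested. DESeq2 called 1859 genes late against early where edgeR called 967, 1988 against 888 intermediate against early, and 289 against 7 late against intermediate. Over all genes, 61, 34 and 104 against 967, 967 and 7 were called without R1 and R4 (late against early) and without R5 (late against intermediate), and 484 late against early with no replicate block. The calls of Ser and vn were also lost with no replicate block. VGlut lost its call in 8 of 43 settings, Fbp1 in 2 of 43, alrm in 2 of 44, apolpp in 1 of 44 and tj in 0 of 44. Low counts of ds and fj limit what can be seen in single libraries.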

Other observations

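Passage 12 of R4, which no stage includes, held 24.4 CPM of ft, 15.7 of ds and 5.89 of fj, with a ds level per kb 0.874 times that of ft. Those values lie between the intermediate and late libraries of R4 for ft, and within the intermediate range for ds and fj. yki was at 29.5 CPM there, below the lowest of the 31 libraries in stages (31.9 CPM).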
